A study of Mus musculus with 2 samples.

Results

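The 8 genes described here are known from neutrophils. They encode alarmins, which signal tissue damage once outside the cell, a resistin-like protein, granule proteases, a protease inhibitor, a decoy receptor and a mitochondrial enzyme: S100a8, S100a9, Retnlg, Mmp8, Mmp9, Slpi, Il1r2 and Acod1. They were taken by name, with earlier results of these data known, and make up 8 of the 21855 gene rows in the count matrix. Their levels were followed over cell classes named from other genes, in 1 control kidney library and 1 library of kidney with folic acid (FA) nephropathy, both labelled as wild-type mouse. The labels state no FA dose, no time after FA and no number of animals. Each condition has 1 library, so no difference between them has a replicate check and no p-value is given. The 95% intervals below are exact Poisson intervals for levels, Clopper-Pearson intervals for shares and conditional binomial intervals for ratios, and all of them cover counting error only.

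Neutrophils make their granule proteins in a sequence during maturation in bone marrow, primary granules first, then specific granules and last gelatinase granules, and mature cells in tissue keep the proteins after many of the transcripts have declined. S100a8 and S100a9 pair into calprotectin, a calcium- and zinc-binding protein of the neutrophil cytosol that acts as an alarmin through the receptor TLR4. In folic acid nephropathy, crystals and direct toxicity harm the tubules, and leukocytes enter the kidney.

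The genes S100a8 and S100a9 lie on chromosome 3 of GRCm38.p6, at 90669071 to 90670034 and 90692630 to 90695721, with 22595 bases between them. Retnlg lies on chromosome 16 at 48872608 to 48874498. Mmp8 lies on chromosome 9 at 7558429 to 7568486. Mmp9 and Slpi both lie on chromosome 2, at 164940326 to 164955850 and 164354070 to 164356507. Il1r2 lies on chromosome 1 at 40084692 to 40125230, and Acod1 on chromosome 14 at 103047012 to 103056573. RefSeq promoter windows of that build were matched for 7 of the 8 genes, all but Mmp9. Upstream windows of 250 bases are printed for the 3 genes whose UMIs varied together among neutrophil-like cells (S100a8, S100a9 and Retnlg), for Mmp8, whose UMIs lay mostly in monocyte-like cells, and for Acod1, which was listed at 0 in control. Each runs 5′ to 3′ on the gene's own strand and ends at the base before the transcription start. Capitals mark matches to the C/EBP core TTGCNNAA, the PU.1 core GAGGAAG or the NF-kB core GGANTTNCC on either strand, and no match overlaps another.
S100a8, chr3:90668821-90669070, plus strand: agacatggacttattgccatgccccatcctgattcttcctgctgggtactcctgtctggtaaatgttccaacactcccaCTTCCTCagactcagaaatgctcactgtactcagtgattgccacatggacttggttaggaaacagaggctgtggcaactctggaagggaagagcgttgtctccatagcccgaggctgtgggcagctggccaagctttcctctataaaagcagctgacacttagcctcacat
S100a9, chr3:90695722-90695971, minus strand: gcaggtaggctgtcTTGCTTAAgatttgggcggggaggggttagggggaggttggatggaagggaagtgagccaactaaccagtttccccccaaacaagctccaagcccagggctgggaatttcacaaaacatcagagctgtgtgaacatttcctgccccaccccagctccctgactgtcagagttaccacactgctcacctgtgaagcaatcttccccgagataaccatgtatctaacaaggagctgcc
Retnlg, chr16:48872358-48872607, plus strand: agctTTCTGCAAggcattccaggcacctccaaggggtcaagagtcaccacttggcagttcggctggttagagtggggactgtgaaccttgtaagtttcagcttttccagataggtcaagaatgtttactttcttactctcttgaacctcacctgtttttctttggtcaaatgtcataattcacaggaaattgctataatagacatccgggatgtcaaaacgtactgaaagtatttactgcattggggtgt
Mmp8, chr9:7558179-7558428, plus strand: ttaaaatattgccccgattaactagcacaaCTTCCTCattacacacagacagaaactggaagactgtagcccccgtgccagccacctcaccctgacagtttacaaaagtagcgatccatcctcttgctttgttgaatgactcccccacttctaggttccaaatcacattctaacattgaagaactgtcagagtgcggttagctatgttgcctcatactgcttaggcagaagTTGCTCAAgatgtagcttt
Acod1, chr14:103046762-103047011, plus strand: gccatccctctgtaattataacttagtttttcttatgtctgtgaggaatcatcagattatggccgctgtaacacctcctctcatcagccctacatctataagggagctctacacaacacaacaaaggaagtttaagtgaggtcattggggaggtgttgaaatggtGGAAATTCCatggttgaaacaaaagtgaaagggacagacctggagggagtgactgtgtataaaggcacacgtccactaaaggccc
The C/EBP core was found in 4 of the 7 windows, those of S100a9, Retnlg, Mmp8 and Slpi, and in 9.56% of the 32851 windows of the same length in the table. It began 19 bases before the start in Mmp8, 236 bases before it in S100a9, 241 in Slpi and 246 in Retnlg. The PU.1 core was found for S100a8, 171 bases before the start, and for Mmp8, 220 bases before it, against 10.6% of all windows. The NF-kB core was found for Acod1, 85 bases before the start, against 3.15% of all windows. These are matches of letters and say nothing of binding.

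The neutrophil-like class was 1 cluster, formed without the 8 genes among the clustering genes and named from 10 other markers. Of its 411 cells, 407 came from FA, which was 3.01% of the 13502 kept FA cells (2.73 to 3.32), and 4 came from control, 0.0689% of 5807 (0.0188 to 0.176). With likely doublets kept, the class had 15 of 6295 control cells (0.238%, 0.133 to 0.393) and 468 of 15922 FA cells (2.94%, 2.68 to 3.21). The receptors Csf3r and Cxcr2 had a UMI in 88.5% and 78.6% of the FA neutrophil-like cells and in 3.25% and 0.321% of the other kept FA cells. The histamine-making enzyme Hdc had one in 89.4% and 2.21%. The surface marker Ly6g was found in only 7.37% of the neutrophil-like cells, and Ly6g and Cxcr1 were listed at 0 in control. The class was shallow, with a median of 1705 UMIs per cell, against 2941 over all kept FA cells and 4965 over kept control cells. Deposited barcodes numbered 9681 with 63646459 UMIs in control and 18997 with 84138607 UMIs in FA, and 54 barcode sequences occurred in both.

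In the FA library, 7 of the 8 genes had their highest level in neutrophil-like cells among the named classes of at least 20 cells, against 6.49% of the 12026 genes with at least 200 kept FA UMIs. Slpi was the exception, being highest in plasma cell-like cells, a rank that rested on 2 of the 111 cells. The 8 genes are known from neutrophils and were chosen with earlier results of these data known, so this count describes them and tests nothing. Levels are given in CPM, a gene's UMIs summed over a class and scaled to the same total in every class. They are UMI levels that are not divided by gene length, so they are compared between classes for 1 gene at a time. The genes fell into a group held almost wholly by neutrophil-like cells (S100a8, S100a9, Retnlg, Mmp9 and, less completely, Acod1) and a group shared with other classes (Mmp8, Slpi, Il1r2). The median over the 8 genes of the share of FA UMIs that lay in neutrophil-like cells was 84.6%.

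**Figure D1:**
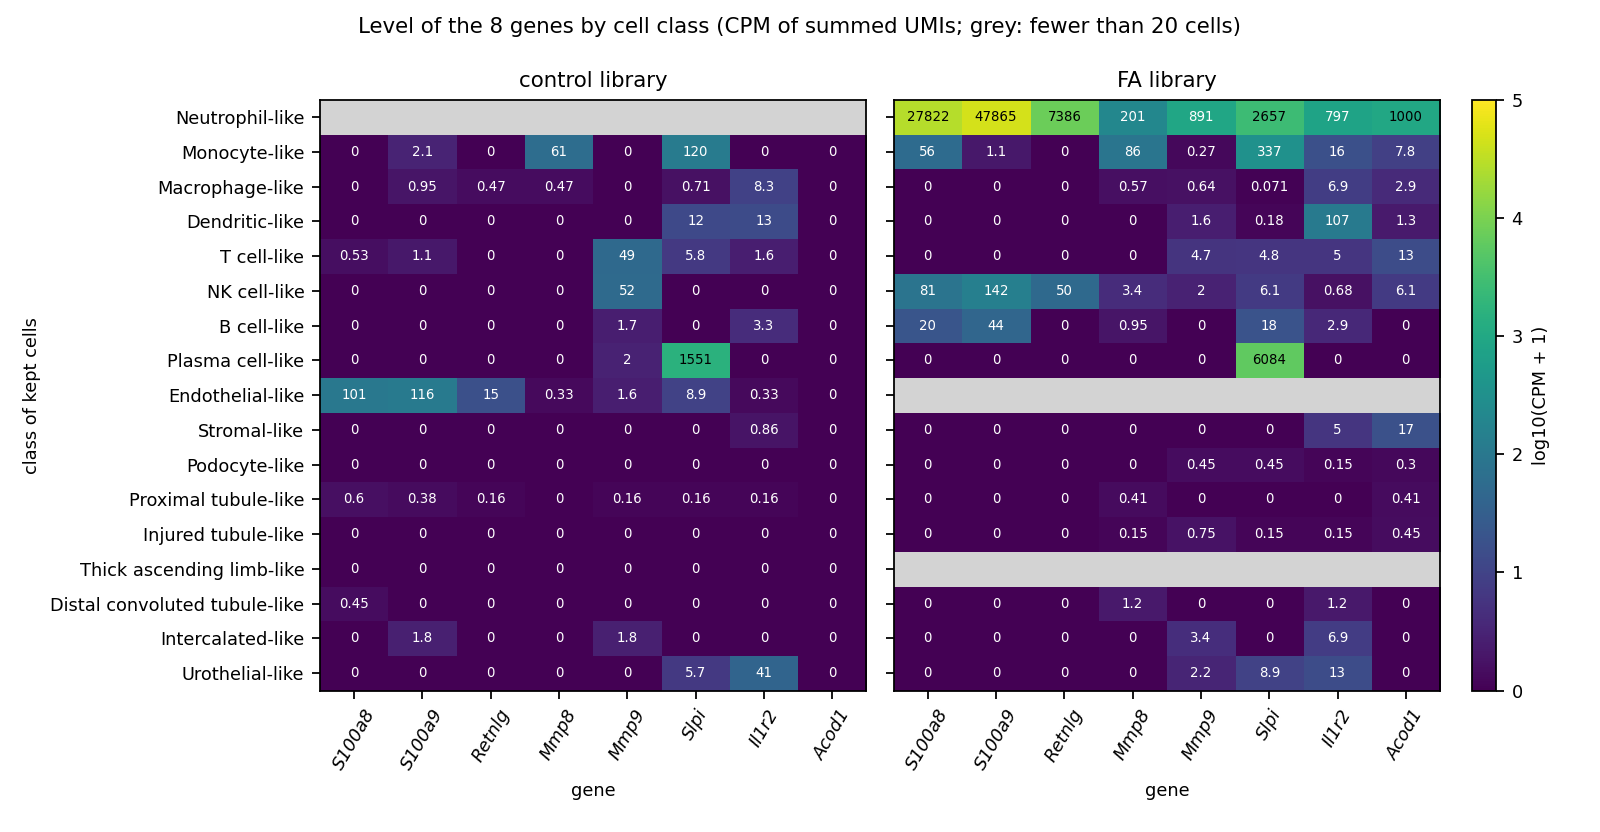
Level of each of the 8 genes (columns) in each class of at least 20 kept cells (rows), as CPM of summed UMIs printed in the tiles, with the colour giving log10(CPM + 1), for the control library on the left and the FA library on the right. Grey rows had fewer than 20 cells in that library. S100a9 reached 47865 CPM in FA neutrophil-like cells, while Slpi was higher in plasma cell-like cells (6084 CPM) than in neutrophil-like cells (2657 CPM). Without the 2 plasma cell-like cells with most Slpi, the plasma cell-like level was 2047 CPM.

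S100a8 and S100a9, the calprotectin subunits, were found in nearly every FA neutrophil-like cell. S100a8 stood at 27822 CPM in FA neutrophil-like cells (27448 to 28200), and 382 of 407 cells (93.9%) had a UMI. Its UMIs per cell ran from 0 through a median of 33 to 309. S100a9 stood at 47865 CPM (47374 to 48359), was found in 391 cells and ran from 0 through a median of 66 to 476 UMIs per cell. Both spread over a wide range rather than around a common level: the 41 cells with most S100a8 held 35.5% of its UMIs in the class. Neutrophil-like cells held 98.1% (97.9 to 98.3) of all kept S100a8 UMIs in FA and 99.1% (99.0 to 99.2) of those of S100a9.

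The S100a8 and S100a9 UMIs moved together from cell to cell. Over the 407 cells the Spearman correlation of their UMIs was 0.93, and 0.91 after division by each cell's total. A correlation across cells of 1 library is a description, and cells share depth and library. Both were found in 379 cells, S100a8 alone in 3, S100a9 alone in 12, and neither in 13. There were 1.72 S100a9 UMIs for each S100a8 UMI.

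Outside the neutrophil-like class, S100a8 and S100a9 were nearly absent in FA. Of 13095 other kept FA cells, 22 (0.168%, 0.105 to 0.254) had an S100a8 UMI and 8 (0.0611%, 0.0264 to 0.120) an S100a9 UMI. Both genes were at 0 in 11 of the 16 other classes of at least 20 cells, unnamed cells counted as 1 of them, and these 11 classes hold 8281 cells. They include the 1805 macrophage-like, 748 dendritic-like, 879 podocyte-like and 1296 injured tubule-like cells. None of the 2281 T cell-like cells had a UMI of either gene, which allows a share of cells with a UMI of up to 0.132% by a floor of 3 counts and 0.162% by the Clopper-Pearson bound. The near absence rested in part on the doublet calls. With likely doublets kept and the cells clustered again, 8 of 17 other classes were at 0 for both genes. T cell-like, dendritic-like and injured tubule-like cells were among these 8. Macrophage-like cells then held 9 UMIs of each gene in 1 cell, and podocyte-like cells 38 of S100a8 and 59 of S100a9 in 2. Urothelial-like cells held 134 and 217 in 2, and proximal tubule-like cells 82 and 46 in 1. All 6 of these cells had been scored as likely doublets. The endothelial-like and thick ascending limb-like classes had 0 kept FA cells in the main clustering, and 98 and 424 with likely doublets kept. Of these 98 endothelial-like cells, 3 held 177 S100a8 and 240 S100a9 UMIs, and all 3 had been scored as likely doublets. The thick ascending limb-like cells were at 0 for both genes. Whether the doublet calls were right was not tested.

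Free RNA, released by broken cells and captured in every droplet, would appear as scattered low counts in all classes, and B cell-like cells were used as the gauge because they should lack both genes. With each cell thinned to 1000 UMIs, 1 of 447 FA B cell-like cells (0.224%) had a UMI of S100a8 or S100a9, and unthinned it was 1 of 463 (0.216%), at a median depth of 1963 UMIs. That single cell carried 21 S100a8 and 46 S100a9 UMIs, and 2 NK cell-like cells carried 119 and 208 between them. In FA the UMIs outside monocyte-like and neutrophil-like cells thus lay in a few cells. In control, 5 of the 9 other kept cells with S100a8 and 13 of the 17 with S100a9 had 1 UMI. Other abundant transcripts behaved differently in the same T cell-like cells: the tubule glutathione peroxidase Gpx3 had a UMI in 62.8% of them, the secreted Spp1 in 84.5%, and the immunoglobulin light chain Igkc in 29.5%. Among the 809 genes with at least 10000 kept FA UMIs the median share of T cell-like cells with a UMI was 46.4%. Only 0.494% of these genes, 4 of 809, had no UMI in any T cell-like cell, and they were S100a8, S100a9 and the chemokines Ccl2 and Ccl12. The macrophage lysozyme Lyz2, with 131087 kept FA UMIs, had a UMI in 1 T cell-like cell. These comparison genes were chosen after values were seen. The labels and files do not say whether free RNA was subtracted from the counts before deposit, so near absence in these counts cannot be told apart from removal.

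Monocyte-like cells were the exception for S100a8. In FA, 15 of 607 (2.47%, 1.39 to 4.04) had 207 S100a8 UMIs, 55.7 CPM, but S100a9 had 4 UMIs in 1 of those cells. S100a9 thus made up 1.90% (0.519 to 4.78) of the summed UMIs of both genes in monocyte-like cells and 63.2% (62.8 to 63.6) in neutrophil-like cells. These intervals take each UMI as independent, while the monocyte-like UMIs lay in 15 cells, so they do not measure spread between cells. Of the 207 UMIs, 100 lay in 2 cells, and without those 2 the level was 28.96 CPM. The summed share moved with the doublet calls: with likely doublets kept, S100a9 made up 35.4% (31.7 to 39.3). Its 224 UMIs then lay in 4 cells, beside 408 of S100a8 in 21. Of these 21 cells, 6 had been scored as likely doublets, and most of the 21 had S100a8 without S100a9. In control monocyte-like cells the only UMI of either gene was 1 of S100a9.

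**Figure D2:**
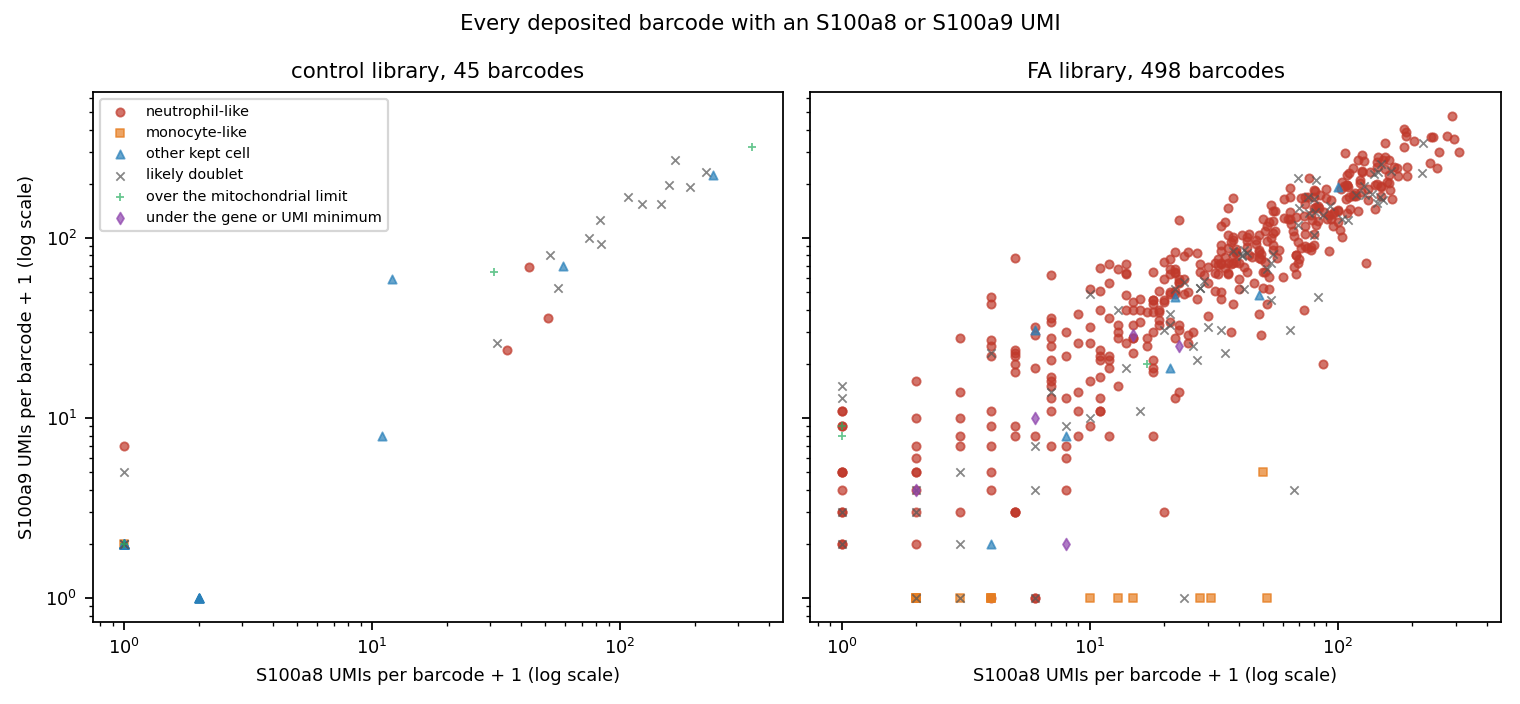
UMIs of S100a8 (horizontal) and S100a9 (vertical), each plus 1 and on log axes, in every deposited barcode with a UMI of either gene, 45 in control and 498 in FA; colour and symbol give the class or the reason for leaving the barcode out. In FA, 394 of them are neutrophil-like cells along a diagonal, and 14 monocyte-like cells lie along the bottom with S100a8 only; in control 16 are likely doublets.

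Retnlg, which encodes resistin-like gamma, a secreted protein rich in rodent neutrophils, was found in the fewest FA cells outside the neutrophil-like class. It stood at 7386 CPM (7194 to 7582) in FA neutrophil-like cells, with UMIs per cell from 0 through a median of 4 to 140, and 146 cells (35.9%) had none. Of 13095 other kept FA cells only 1, an NK cell-like cell with 73 UMIs, held any, and in control 7 of 5803 other kept cells did. Its UMIs followed those of S100a9 (Spearman 0.71 over 407 cells) and ran against those of Il1r2 (-0.22, and -0.32 after division by the total).

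The granule proteases divided. Mmp9, gelatinase B of the gelatinase granules, stood at 891 CPM (825 to 961) in FA neutrophil-like cells, in 285 of 407 cells with at most 10 UMIs in a cell, and these cells held 90.4% of its kept FA UMIs. Mmp8, the neutrophil collagenase, was sparse there: 153 UMIs in 84 cells, 201 CPM (171 to 236). Monocyte-like cells held more of its UMIs, 319 in 166 of 607 cells, or 64.8% (60.4 to 69.1) of the kept FA total against 31.1% (27.03 to 35.4) in neutrophil-like cells, although their level of 85.9 CPM (76.7 to 95.8) was lower. With each cell thinned to 1000 UMIs, the share with Mmp8 was 12.5% (9.31 to 16.2) in neutrophil-like and 6.52% (4.68 to 8.81) in monocyte-like cells. In the same monocyte-like cells Retnlg was at 0 and S100a9 had 4 UMIs. The monocyte-like Mmp8 level in control was 61.1 CPM (40.9 to 87.7), 29 UMIs in 17 of 66 cells, and the ratio of FA over control was 1.41 (0.960 to 2.13), an interval that includes 1. Monocyte-like cells with an Mmp8 UMI had more of the classical monocyte genes than those without: F13a1 stood at 562 and 275 CPM, Vcan at 481 and 258, and Ly6c2 at 2249 and 1670. The non-classical marker Ace went the other way, at 16.6 and 100.4 CPM. The cells with Mmp8 were also deeper, with a median of 6833 UMIs against 5668. These partner genes were chosen after values were seen.

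Slpi, the secretory leukocyte protease inhibitor, which blocks neutrophil elastase, had most of its kept UMIs in plasma cell-like cells. In FA, 8584 of 12071 kept UMIs (71.1%) lay in 111 plasma cell-like cells, against 16.7% in neutrophil-like cells (2657 CPM, 2542 to 2775) and 10.4% in monocyte-like cells (337 CPM, 319 to 357). In control, 92.6% lay in 65 plasma cell-like cells, at 1551 CPM (1488 to 1616). The summed plasma cell-like level was higher in FA, 6084 CPM, a ratio of 3.92 (3.75 to 4.11), but 2 FA cells, with 3019 and 2786 UMIs, held 67.6% of it, and the next cell had 396. Without the 2 highest cells of each library the levels were 2047 CPM in FA and 1387 in control, a ratio of 1.48 (1.39 to 1.57). The typical cell went the other way: the median was 2 UMIs per cell in FA and 25 in control, at median depths of 12433 and 21512 UMIs. Thinned to 1000 UMIs per cell, 34.0% (25.04 to 43.8) of FA and 58.5% (45.6 to 70.6) of control plasma cell-like cells had a Slpi UMI, and unthinned 61.3% and 83.1%. So the sum and the share of positive cells had opposite directions. Among FA classes, the first rank of plasma cell-like cells rested on the 2 highest cells. Without them, 2047 CPM lay below the 2657 CPM of neutrophil-like cells, which stood at 2597 CPM without their own 2 highest. Thinned to 1000 UMIs, 72.15% of neutrophil-like cells had a Slpi UMI. One of the 2 high FA cells had Igha as its leading heavy chain and the other Ighg2c. Among Igha-led cells 57 of 97 in FA and 48 of 59 in control had Slpi. The split by heavy chain was chosen after values were seen.

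Monocyte-like Slpi was higher in FA, 337 against 120 CPM in control, a ratio of 2.81 (2.15 to 3.73), with 255 of 607 and 22 of 66 cells positive. In T cell-like cells Slpi stood at 4.83 CPM in FA and 5.83 in control, and the interval of the ratio, 0.407 to 1.82, includes 1.

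Il1r2, the decoy receptor that binds interleukin 1 without signalling, had nearly equal numbers of UMIs in 2 classes of FA. Neutrophil-like cells held 606 in 253 of 407 cells, at 797 CPM (735 to 864), and dendritic-like cells 596 in 281 of 748 cells, at 107 CPM (98.5 to 116). Monocyte-like cells followed at 15.6 CPM (11.9 to 20.2), and macrophage-like cells had 6.93 CPM (5.62 to 8.46). The dendritic-like class was 1 cluster led by Cd209a and Ccl17, genes of type 2 and monocyte-related dendritic cells. Its Il1r2-positive cells had Siglech, a plasmacytoid dendritic cell gene, at 4.32 CPM against 81.0 in the rest, and Xcr1, a type 1 dendritic cell gene, at 0.863 against 7.67. In dendritic-like cells Il1r2 stood 8.34 times higher in FA than in control (4.63 to 16.8), from 12.8 CPM with 11 UMIs in 9 of 96 control cells. In macrophage-like cells the ratio was 0.837 (0.563 to 1.27), an interval that includes 1, and different clusters hold most of that class in the 2 libraries, cluster 6 in control and clusters 20 and 27 in FA. In control the highest level was in urothelial-like cells, 40.6 CPM (29.4 to 54.7), 43 UMIs in 24 of 60 cells, and those cells had more of the basal keratin Krt14 than the rest, 2176 against 170.0 CPM. In FA 24 T cell-like cells had Il1r2, and 50% of these against 5.32% of the other T cell-like cells had the cytokine Il17a. The antigen-presentation gene Cd74, no T cell gene, was in 33.3% and 5.67% of them, and its part was not tested. These partner genes were also chosen after values were seen.

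Acod1 encodes the mitochondrial enzyme that makes itaconate, a metabolite of activated myeloid cells. It was listed at 0 in every deposited control barcode, and its level in FA is therefore given with no ratio. A gene above 0 in a library had UMIs in at least 10 barcodes there, so a gene listed at 0 could have had a few. In FA neutrophil-like cells it stood at 1000.1 CPM (930 to 1074), in 227 of 407 cells, with UMIs per cell from 0 through a median of 1 to 18. These cells held 78.8% (76.1 to 81.4) of its kept FA UMIs. T cell-like cells came next by number, with 88 UMIs in 38 of 2281 cells (13.3 CPM, 10.6 to 16.4), 80 of them in cluster 0, led by Il17a, Areg and Icos. Il17a had a UMI in 5.26% of the 38 cells and 5.80% of the other T cell-like cells, and Areg in 26.3% and 7.54%. Csf3r had a UMI in 7.895% of the 38 cells, against 0.624% of the other T cell-like cells, and Cd74 in 13.2% against 5.84%. The part of RNA from neutrophils or other cells was not tested. These partner genes were chosen after values were seen. Macrophage-like cells, where the enzyme is best known, had 41 UMIs in 20 of 1805 cells (2.93 CPM, 2.10 to 3.98). The 16.6 CPM of stromal-like cells came from 10 UMIs in 1 cell. The levels of the stromal-like, T cell-like, monocyte-like and NK cell-like classes overlapped with the next in order.

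**Figure D3:**
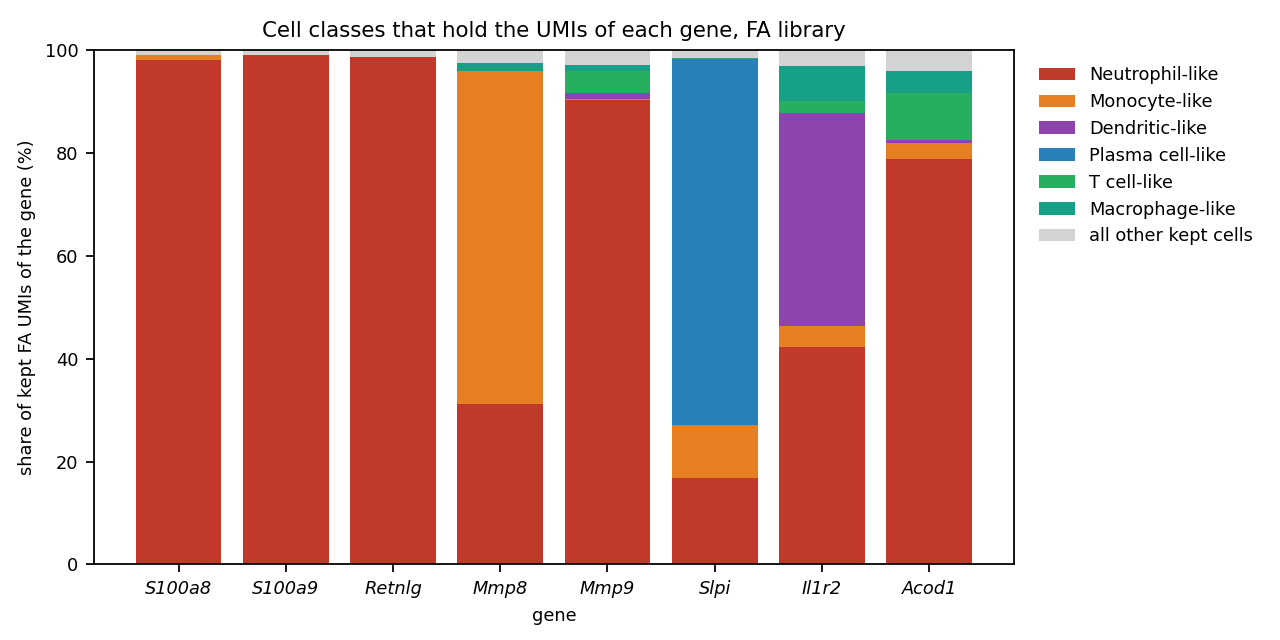
Share of the kept FA UMIs of each of the 8 genes (horizontal) that lay in each cell class, in percent (vertical, stacked to 100). Neutrophil-like cells held 99.1% of S100a9 and 31.1% of Mmp8, and the largest share of Slpi, 71.1%, lay in plasma cell-like cells.

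Within the FA neutrophil-like class the genes did not vary as a block. The 407 cells were clustered again without the 8 genes into 5 subgroups, a step chosen after values were seen. Subgroup 1, of 142 cells, was led by Lcn2, Ccl6 and Wfdc21. Subgroup 2, of 98 cells, was led by E230029C05Rik and Clec4n. Subgroup 3, of 64 cells, was led by Cryab and Pck1. Subgroup 4, of 63 cells, was led by the chemokines Ccl3 and Ccl4 and by Icam1, with the macrophage genes C1qa, Cd74 and Apoe among its leading genes. Subgroup 5, of 40 cells, was led by the interferon-stimulated Ifit3 and Ifit1. The part of other cells' RNA in subgroups 3 and 4 was not tested.

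S100a8 was highest in subgroup 1, 44474 CPM (43660 to 45299), and lowest in subgroup 4, 12332 CPM (11747 to 12938). Retnlg had the same order with a wider range, 15404 CPM (14927 to 15893) and 1095 CPM (926 to 1286), and was found in 97.2% of subgroup 1 and 15.9% of subgroup 4. Mmp8 and Slpi were also highest in subgroup 1, at 336 CPM (269 to 415) and 3913 CPM (3674 to 4163), but the Mmp8 intervals of subgroups 1 and 5 overlapped. Il1r2 ran the other way, lowest in subgroup 1 at 438 CPM (361 to 527) and highest in subgroup 2 at 1171 CPM (1005 to 1357), an interval that overlapped those of subgroups 4 and 5. Acod1 was highest in the interferon-led subgroup 5, at 1815 CPM (1561 to 2099), and lay between 562 and 973 CPM in the others. Mmp9 lay between 741 and 1048 CPM, and its interval in subgroup 5 overlapped with that of every other subgroup. All 8 genes were found together in 26 cells, and 2 cells had none of them.

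**Figure D4:**
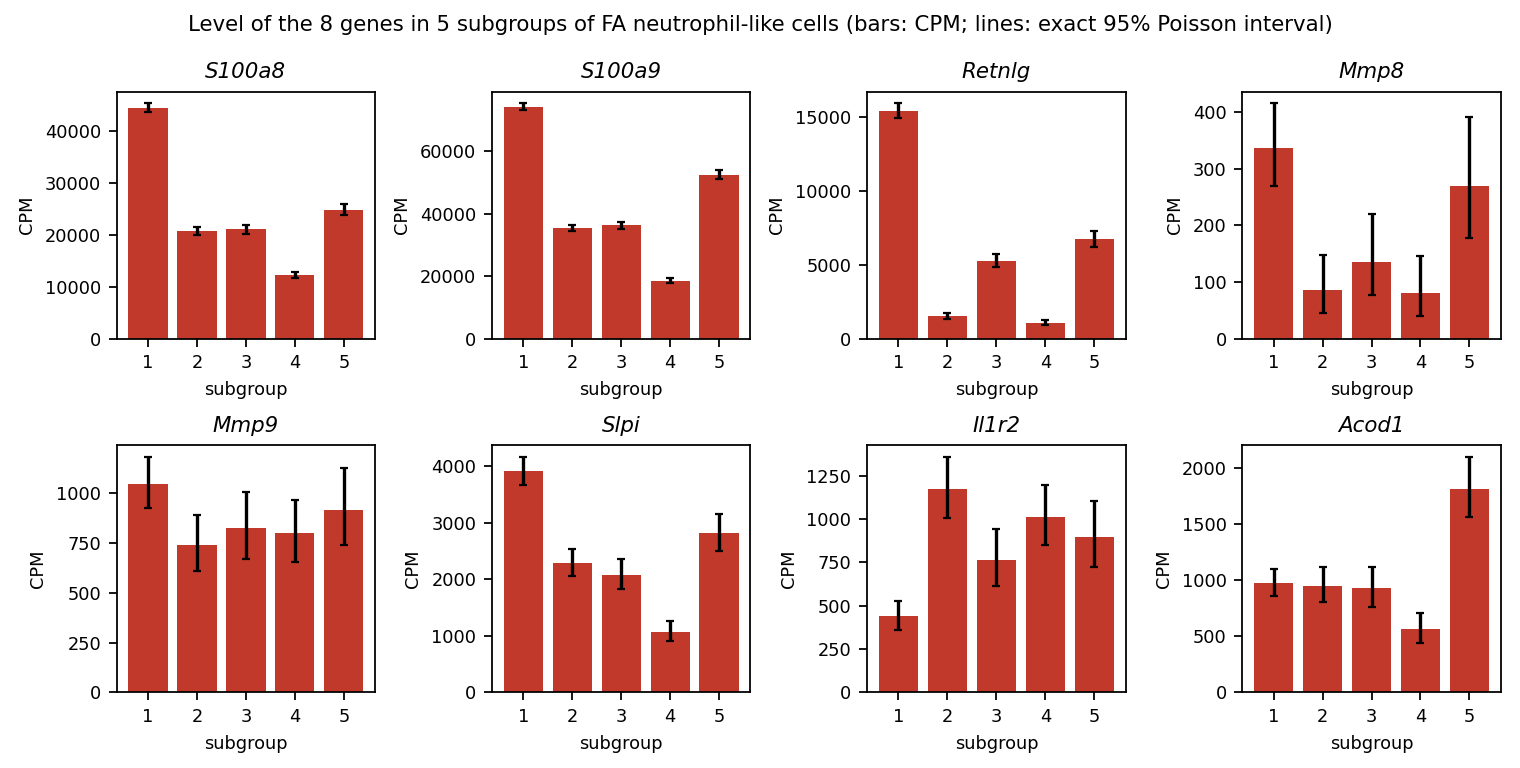
CPM of each of the 8 genes (1 panel each, vertical axes from 0 on scales of their own) in 5 subgroups of the 407 FA neutrophil-like cells, with exact 95% Poisson intervals as lines. S100a8, S100a9 and Retnlg are highest in subgroup 1 and lowest in subgroup 4, Il1r2 is lowest in subgroup 1, and Acod1 is highest in subgroup 5.

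Between libraries, 7 of the 8 genes could be given a ratio, and all 7 were at least 1.5 times higher in FA over all kept cells, against 20.8% of 17838 genes. The choice of genes with earlier results known makes this count a description too. The median over the 7 was 3.41 on the log2 scale and over all genes -0.115. Counted over every deposited barcode, with no cell filter, all 7 were again past 1.5, against 33.0% of 18057 genes, and the median was 3.16 against 0.26 over all genes. These sums set 407 neutrophil-like cells against 4, so they cannot tell apart more cells from more RNA per cell, and with 4 control cells no level was compared within the class. The 4 control cells had 42, 50, 0 and 34 S100a8 UMIs and 68, 35, 6 and 23 S100a9 UMIs. The FA ranges, 0 to 309 and 0 to 476, are too wide to tell whether the levels are alike. None of the 4 had an Mmp8 or Il1r2 UMI, and all 4 had Mmp9, with 2 to 5 UMIs.

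The size of the calprotectin and Retnlg ratios depended on which control barcodes were counted. In kept cells S100a8 went from 10.8 CPM in control to 372 CPM in FA, a ratio of 34.4 (31.3 to 37.9), S100a9 from 12.1 to 633 CPM, a ratio of 52.2 (47.8 to 57.1), and Retnlg from 1.45 to 98.1 CPM, a ratio of 67.6 (52.5 to 88.8). Over every deposited barcode the ratios were 8.48 (8.12 to 8.85), 11.9 (11.5 to 12.4) and 21.5 (18.9 to 24.6), and with likely doublets kept they were 7.58, 10.4 and 18.1. Of the 27 control barcodes with an S100a8 UMI, 13 had been scored as likely doublets, and these held 64.5% of its control UMIs. Their totals ran from 547 to 17048 UMIs with a median of 1944, and 11 of the 13 lay below the median of kept control cells. Each of the 13 had UMIs of at least 2 neutrophil markers, and 10 had 5 or 6. Counting instead every deposited barcode with at least 10 UMIs of both genes, a rule chosen after values were seen, gave 21 of 9681 in control (0.217%, 0.134 to 0.331) and 369 of 18997 in FA (1.94%, 1.75 to 2.15). In kept control cells 307 of the 447 S100a8 UMIs lay in 4 of 812 endothelial-like cells.

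The other ratios moved less. In kept cells and in every deposited barcode they were 10.6 (7.48 to 15.6) and 8.95 (6.66 to 12.3) for Mmp8, 4.08 (3.39 to 4.95) and 3.06 (2.64 to 3.56) for Mmp9, 3.50 (3.35 to 3.66) and 4.24 (4.08 to 4.41) for Slpi, and 10.3 (8.43 to 12.8) and 11.6 (9.54 to 14.1) for Il1r2. With likely doublets kept, the Mmp8 ratio was 6.72 (5.002 to 9.23) and the Mmp9 ratio 2.60 (2.23 to 3.06). Without the 2 highest plasma cell-like cells of each library the Slpi ratio over kept cells was 2.07 (1.97 to 2.17).

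**Figure D5:**
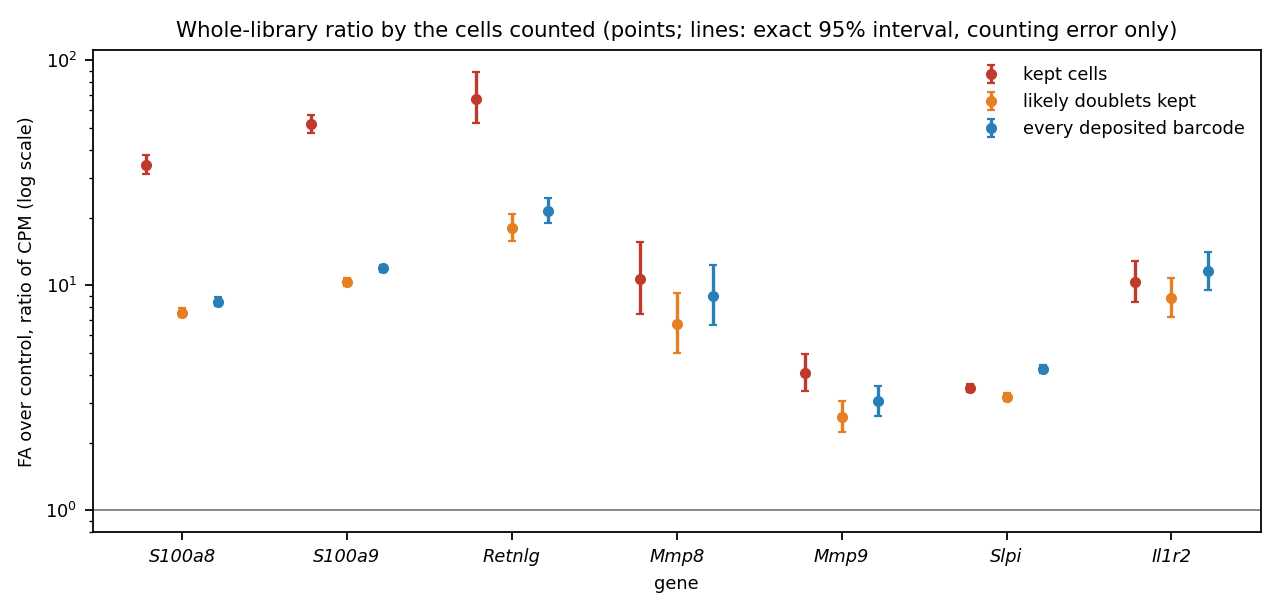
Ratio of FA over control CPM (vertical, log scale, grey line at 1) for the 7 genes with a ratio (horizontal), over kept cells, with likely doublets kept, and over every deposited barcode; lines are exact 95% intervals. For S100a8 the ratio is 34.4 in kept cells and 8.48 over every barcode, while for Il1r2 the values are 10.3 and 11.6.

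Mmp9 went against this direction in T cell-like cells and, on few UMIs, in NK cell-like cells. In NK cell-like cells it stood at 52.5 CPM (21.1 to 108) in control, 7 UMIs in 4 of 40 cells. In FA it stood at 2.04 CPM (0.422 to 5.97), 3 UMIs in 2 of 495 cells. Of the 7 control UMIs, 4 lay in 1 cell, and without the 2 highest cells the control level was 15.6 CPM. The 40 control cells fall short of the 50 set for a comparison within a class, so no ratio is given. In T cell-like cells Mmp9 stood at 49.3 CPM (39.8 to 60.4) in control, 93 UMIs in 55 of 538 cells. In FA it stood there at 4.67 CPM (3.18 to 6.64), 31 UMIs in 24 of 2281 cells, a ratio of 0.0948 (0.0610 to 0.144). Thinned to 1000 UMIs, 5.08% (3.37 to 7.30) of control and 0.572% (0.296 to 0.997) of FA cells were positive. T cell-like cells held 70.99% of the kept control UMIs of Mmp9. Within cluster 10, led by Cd8b1 and Ccl5, the levels were 69.8 CPM (55.5 to 86.6) in control and 2.94 CPM (1.27 to 5.80) in FA. The neutrophil receptor Csf3r and S100a9 were at 0 in the 55 control cells with Mmp9, while the T cell receptor component Cd3e was found in 87.3% of them. They had less Cd8b1 than the other control T cell-like cells (91.95 against 623 CPM) and more of the tissue-residence genes Cxcr6 (1500 against 619 CPM) and Itga1 (356 against 121 CPM), genes chosen after values were seen.

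Genes most like each member were sought over 29 groups of at least 50 cells (class by library), among 13964 genes, by Pearson correlation of log2(CPM + 10). Only 1 of the 29 groups was neutrophil-like, so a high value mostly records that group and is given as a description. For S100a8 they were S100a9 (0.974), Retnlg (0.958) and the chemokine receptor Cxcr2 (0.929), and for S100a9 they were S100a8, Retnlg (0.973) and the stefin Stfa2l1 (0.932). For Retnlg they were Stfa2l1 (0.976), S100a9 and Cxcr2 (0.968), and for Acod1 they were Cxcr2 (0.965), the chemokine Cxcl3 (0.962) and Il36g (0.958). Mmp9 was nearest to H2-Q10 (0.948), Asprv1 (0.926) and Cstdc4 (0.926). Mmp8 was nearest to Nfe2 (0.971), Bmx (0.969) and haptoglobin, Hp (0.965). Slpi stood apart, nearest to the plasma cell transcription factor Xbp1 (0.807), Isg20 (0.776) and Ighg2c (0.766). Il1r2 was nearest to Hcar2 (0.943), Alox5 (0.900) and A530064D06Rik (0.888).

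The counts of other genes below stand against 20.8% of all 17838 genes higher and 31.2% lower by the same 1.5-fold rule, and 6.49% of 12026 genes highest in neutrophil-like cells. Cells named proximal tubule-like made up 38.3% of kept cells in control and 3.87% in FA. Unnamed cells made up 2.58% in control and 24.1% in FA. Unnamed clusters 23 and 24, with 1034 and 1310 FA cells, had proximal tubule as their nearest class, so the named share may leave out such cells. Ratios over all kept cells also move with the mix of classes, and that part was not tested. In the gelatinase granule and late surface list, 7 of the 8 genes with a ratio were at least 1.5 times higher in FA over kept cells, 0 lower and 1 neither, with a median of 2.63 on the log2 scale, and 5 of 8 genes with at least 200 FA UMIs were highest in neutrophil-like cells. The formyl peptide receptor Fpr1, listed at 0 in control, stood there at 183 CPM and the sheddase Adam8 at 172, and both were highest there. The integrin Itgam stood there at 313 CPM, below the 358 CPM of macrophage-like cells, its highest class. In the specific granule list 5 of 7 were higher and 2 lower, with a median of 1.16, and 0 of 4 were highest in neutrophil-like cells, a count too small to set against 6.49%: Hp (1641 CPM there), the siderophore-binding Lcn2 (1082 CPM), Chil3 (85.5 CPM) and Cybb (39.5 CPM). Lcn2 was not resolved from its highest class, urothelial-like cells, since their intervals of 1009 to 1158 and 1059 to 1260 CPM overlapped. Chil3 was highest in monocyte-like cells (2489 CPM) and was among the markers that named them, so its rank was partly set by the naming. The 2 lower genes were Ltf, at a ratio of 0.282, and Olfm4, at 0.138. Of the 6 primary granule genes, 5 were not analysed here. The other, Prtn3, had a ratio of 19.9 (11.5 to 37.7) but 3 of its 362 FA UMIs in neutrophil-like cells, and its highest level, 82.4 CPM, was that of monocyte-like cells.

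Among protease inhibitors 3 of 7 were higher, 1 lower and 3 neither, with a median of 0.53. The neutrophil-like levels were 3056 CPM for Wfdc17, 862 for the stefin Stfa2l1, which was listed at 0 in control, 557 for Wfdc21 and 370 for the cathepsin inhibitor Cstb. Cstb was highest in injured tubule-like cells, at 960 CPM. Of the 8 genes with at least 200 FA UMIs, 3 were highest in neutrophil-like cells. In the list of S100 proteins and other alarmins 6 of 10 were higher, 2 lower and 2 neither, with a median of 1.18. Its highest neutrophil-like levels were those of S100a6 (3292 CPM), S100a11 (3211 CPM), Anxa1 (430 CPM) and Lgals3 (251 CPM). Of these only Anxa1 was highest there. S100a6 was highest in urothelial-like cells (6102 CPM), S100a11 in distal convoluted tubule-like cells (3275 CPM) and Lgals3 in monocyte-like cells (2164 CPM). Of the 10 genes with at least 200 FA UMIs, 2 were highest in neutrophil-like cells. In the list of S100a8 and S100a9 receptors and signalling 3 of 9 were higher, 1 lower and 5 neither, with a median of 0.18. There the lipopolysaccharide co-receptor Cd14 stood at 1150 CPM in neutrophil-like cells, Cd33 at 311, the adaptor Myd88 at 158 and Bsg at 100. Myd88 was highest in monocyte-like cells (191 CPM) and Bsg in urothelial-like cells (645 CPM). Of the 8 genes of this list with at least 200 FA UMIs, 3 were highest in neutrophil-like cells.

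In the interleukin 1 system 4 of 7 genes were higher, 1 lower and 2 neither, with a median of 1.005. Interleukin 1 beta, Il1b, stood at 22016 CPM in neutrophil-like cells, its receptor antagonist Il1rn at 333, the accessory chain Il1rap at 93.4 and Casp1 at 43.4. Casp1 was highest in monocyte-like cells (95.3 CPM). Of the 7 genes with at least 200 FA UMIs, 4 were highest in neutrophil-like cells. The signalling receptor Il1r1 had 0 UMIs in neutrophil-like cells and a ratio of 0.490 (0.402 to 0.594). In the itaconate list 3 of 9 were higher, 5 lower and 1 neither, with a median of -0.78. The 3 higher genes were the stress and inflammation regulators Atf3 (2511 CPM in neutrophil-like cells), Nfkbiz (973 CPM) and Nfe2l2 (695 CPM). Atf3 was highest in monocyte-like cells (3849 CPM). Of the 9 genes with at least 200 FA UMIs, 2 were highest in neutrophil-like cells. The 5 lower were aconitases, succinate dehydrogenase subunits and Clybl, among them Sdhb at 96.1 CPM, and each of the 5 had its highest FA level in proximal tubule-like or intercalated-like cells. Of the resistin-like family Retn had 36 of 44 FA UMIs in neutrophil-like cells and was listed at 0 in control, and the other members of the list were not analysed here.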

How the data were processed

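Single-cell RNA sequencing covered 1 control and 1 FA kidney library, per the labels. The authors deposited 1 matrix of UMI counts for both libraries, 21855 genes by 28678 barcodes, in which 0 values were below 0 or not whole. Seurat and mm10 are the tool and build named, per the submitters' processing notes. Aligner, counter and free RNA correction, if any: not given in the sources used here (so effects on levels near 0 are unknown). The start of each barcode name gave its library. FA3 names the FA sample and C3 was taken as control, by its letter and because it was the other start, not from a stated key.

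Kept barcodes had 200 genes and 500 UMIs or more, and a mitochondrial share of 50% or less, 6295 in control and 15922 in FA. A rewritten form of Scrublet's scheme then left out 488 and 2420 likely doublets (0.8% per 1000 barcodes). Log values of both libraries were clustered together (scanpy 1.11.5, 2000 variable genes without the 8 genes, 30 components, 15 neighbours, Leiden resolution 1). Clusters were named from fixed markers. The requirement of at least 3 markers detected in 5% of cells and the score minimum of 0.5 were set after clusters had been seen. UMIs were summed per class and library and scaled to CPM. For shares set across classes, cells were thinned to 1000 UMIs and shallower cells left out. A ratio needed at least 20 UMIs over both libraries and UMIs in control.

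The members and lists were chosen with earlier results of these data known. Named genes were the 8 members, the 3 genes most like each, and up to 4 of each list by level in FA neutrophil-like cells; Clybl, Ltf, Olfm4, Il1r1 and the genes so marked were named beyond that rule, after values were seen. Some genes the rule would name are not reported here. In simulated Poisson counts over 17138 genes of the whole-library comparison, genes raised 4-fold came out at a median ratio of 3.99 and genes set to 0.25 at 0.247. In each set 96% of intervals held the simulated ratio. Poisson counts are what the intervals assume, so this does not show how they behave where a few cells hold most UMIs.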

Additional observations from a re-analysis of the deposited data

Results flagged for a closer look

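Values here come from barcodes left out of the kept cells, and each was higher in FA than in control with intervals that did not overlap. Among barcodes scored as likely doublets, Retnlg stood at 47.1 CPM in FA and 36.4 CPM in control. Il1r2 stood at 12.9 CPM in FA and 2.87 CPM in control in the same barcodes. Slpi stood there at 209.8 CPM in FA and 124 CPM in control, and 1 FA barcode held 3081 of its 4630 UMIs. Without that barcode the FA level was 70.3 CPM (66.8 to 73.9), below control, so this direction rested on 1 barcode. In barcodes over the mitochondrial limit, Slpi stood at 22.2 CPM in FA (17.8 to 27.3) and 0.995 CPM in control (0.590 to 1.57). It was spread over 86 of 2982 FA barcodes, 82 of them with 1 UMI, whereas 3 of 3380 control barcodes held all 18 control UMIs. S100a9 was found in 3 of those 2982 FA barcodes.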

How the results depend on the processing

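No paired analysis was possible because each group has 1 library. The neutrophil-like share of kept FA cells, 3.01%, was 3.46% with a mitochondrial limit of 20% and 9.62% when a cell needed only 2 neutrophil markers; that looser rule also took in 224 control cells. The median share of FA UMIs in neutrophil-like cells, 84.6%, was 81.1% with likely doublets kept and 88.95% by the 2-marker rule. The median log2 ratio of FA over control, 3.41, was 2.92 with likely doublets kept and 4.16 with each cell weighed the same. The share of FA B cell-like cells with S100a8 or S100a9 stayed inside its interval under all 8 alternatives run. That interval, 0.00566 to 1.24%, rests on 1 of 447 cells and would hold most outcomes, so it says little of stability. Of the levels and shares of single genes and of their ratios, 45 of 135 left their counting interval with likely doublets kept and 16 of 120 levels did with each cell weighed the same. Counting error is the only error measured, since each condition has 1 library. In control, sparse genes such as Mmp8, with 48 UMIs over all barcodes, limit precision. With likely doublets kept, the neutrophil-like share of control cells was 0.238%, not 0.0689%, and S100a9 made up 35.4%, not 1.90%, of S100a8 and S100a9 UMIs in FA monocyte-like cells. The S100a8 and S100a9 classes with likely doublets kept, leaving out the Slpi barcode, leaving out the 2 highest plasma cell-like cells, keeping likely doublets in the ratios of single genes and counting every barcode for them were alternatives chosen after seeing the data.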
